A study of Canis lupus familiaris with 26 samples.

Results

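Transcripts of 5 genes for large matrix glycoproteins, TNXB, ABI3BP, VIT, HMCN2 and IGSF10, were followed in the stroma of canine simple mammary adenomas, called adenoma-associated stroma (AAS), and in normal stroma of the same dogs. They are 5 of the 18466 genes of the count table, found by symbol. They were chosen with the difference between AAS and normal stroma in these same samples known, and this difference is therefore described without p-values. The 13 cases were female dogs of 6 to 13 years with naturally occurring simple adenomas, benign epithelial tumours of the mammary gland. Each dog gave 1 sample of normal stroma, lying beside unaltered glands on the same slide, and 1 sample of AAS, which the labels call cancer-associated stroma. Both were cut out by laser-capture microdissection from formalin-fixed, paraffin-embedded tissue that had been stored for 4 to 29 months, and RNAseq was performed. The labels name no treatment for any sample, and each region is a mixture of cells rather than a sorted cell type.

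Matrix glycoproteins are secreted proteins built from repeated modules that bind collagen fibrils, growth factors and cell surface receptors. In the mammary gland they are made mainly by fibroblasts, which lay down the connective tissue around ducts and lobules. TNXB encodes tenascin-X, a fibronectin type III repeat protein that associates with collagen fibrils, and its loss in humans causes a form of Ehlers-Danlos syndrome with fragile, stretchable skin. ABI3BP encodes another secreted protein with fibronectin type III modules. VIT encodes vitrin, a matrix protein with von Willebrand factor A domains. HMCN2 encodes hemicentin-2, a very long protein with immunoglobulin repeats that belongs to the wider fibulin family, and IGSF10 encodes a secreted protein with leucine-rich and immunoglobulin repeats.

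The 12 pairs compared held between 419770 and 1614120 estimated counts per sample. The AAS sample of pair 7 stands apart, because 1 gene took 84.9% of its counts, so the fold changes of the 5 genes and the correlations that passed are also given without this pair. The normal stroma sample of pair 14 held 83727 counts, and this pair was kept out of the comparison. Among 10 fibroblast markers, 7 had an identifier, and none of these was at 0 in every sample of a group. Their summed level ran from 2321 to 22311 normalized CPM (counts per 1e6 of the TMM-adjusted library size) in normal stroma, with a median of 5917, and from 783 to 7824 in AAS, with a median of 2825. COL1A1 weighed most in this sum in normal stroma, with a mean of 3781 there against 1579 in AAS, so that the sum is no measure of fibroblast number. Of the markers of luminal epithelium 3 of 9 had an identifier, and their sum had a median of 154 in normal stroma against 216 in AAS. Of the leukocyte markers 3 of 8 had one, with a sum of 25.5 to 150 against 0 to 149 in AAS, lower there in 10 of 12 pairs. Sums over 2 genes ran from 15.0 to 146 against 18.7 to 424 for myoepithelium and smooth muscle (of 8 listed), from 9.22 to 89.2 against 0 to 63.4 for endothelium (of 7) and from 2.12 to 68.1 against 0 to 68.7 for Schwann cells (of 4). The 1 epidermis marker of 5, SPINK5, had 0 to 121 against 0 to 11.2, and none of 3 skeletal muscle markers had an identifier. Of 8 adipocyte markers only LEP had one, with a highest value of 4.25 in normal stroma against 6.76 in AAS, so that fat in the samples could not be assessed from the list.

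All 5 genes had lower mean levels in AAS than in normal stroma, with log2 fold changes from -3.06 to -1.78, and in 10 of 12 pairs every one of them was lower in AAS. Each gene was lower in at least 10 of 12 pairs, as were 6.84% of the 4544 tested genes. TNXB, VIT and IGSF10 were lower in AAS in 12 of 12 pairs, as were 0.99% of tested genes. For none of the 5 genes were the groups free of overlap, which was the case, with AAS lower, for 0.176% of tested genes. In bulk tissue, fewer cells of the type that makes a transcript and less of it per cell cannot be told apart. In 3 cases, VIT and HMCN2 in pair 7 and HMCN2 in pair 15, the AAS sample held no count and its floor of 3 counts lay above the normal stroma value, so that these pairs do not show a difference. The fibroblast and leukocyte marker sums were themselves lower in AAS in 10 of 12 pairs. Single fibroblast markers were lower in 7 pairs (THY1) to 12 pairs (COL1A2, DCN and VIM). Of the leukocyte markers, CD163 was lower in 7 pairs, CSF1R in 8 and LYZ in 4. The epidermis marker was lower in 9 pairs. The sum for myoepithelium and smooth muscle was lower in 1 of 12, with a median of 49.8 in normal stroma against 108 in AAS. The part of these cell types in the differences of the 5 genes was not tested.

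TNXB (ENSCAFG00000000751) had its lowest normal stroma value at 285 normalized CPM, its median at 565 and its highest at 1049. In AAS the lowest value was 10.1, the median 70.4 and the highest 299. The AAS sample of pair 9, the highest, was the only one to exceed the lowest normal stroma sample, that of pair 6, and 10 of 12 normal stroma samples lay above every AAS sample. The spread was wider in AAS, with a coefficient of variation of 98.7% against 43.6%. The means were 599 ± 261 and 94.9 ± 93.7 (SD, n = 12 each), a log2 fold change of -2.64 (standard error 0.43). Within pairs the log2 difference ran from -5.81 in pair 11 to -0.98 in pair 15. TNXB is the only one of the 5 genes with counts in every sample of both groups.

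IGSF10 (ENSCAFG00000008537) ranged from 20.7 to 250.3 normalized CPM in normal stroma, with a median of 110.3. In AAS it ranged from 0 to 34.8, with a median of 7.81. The normal stroma samples of pairs 6 and 15 were the highest and those of pairs 9 and 10 the lowest, and 10 of 12 lay above every AAS sample. No count was found in the AAS samples of pairs 10, 12 and 15. The means were 114 ± 70.6 and 12.8 ± 12.9 (SD, n = 12 each) and the log2 fold change was -3.06 (standard error 0.53). IGSF10 thus had the largest fold change of the 5 genes, followed by TNXB, although their 95% intervals, -4.14 to -1.97 and -3.51 to -1.77, overlap widely.

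VIT (ENSCAFG00000005925) ranged from 12.7 to 133 normalized CPM in normal stroma, with a median of 28.7. In AAS it ranged from 0 to 39.2, with a median of 2.98. Only the AAS samples of pairs 3 and 15 exceeded the lowest normal stroma sample, and 5 of 12 AAS samples held no count. Among pairs with counts in both samples, the smallest log2 difference was in pair 3, with 57.2 normalized CPM in normal stroma against 39.2 in AAS. The means were 40.3 ± 33.7 and 7.39 ± 12.0 (SD, n = 12 each), with a log2 fold change of -2.35 (standard error 0.66).

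ABI3BP (ENSCAFG00000009506) ranged from 13.3 to 116 normalized CPM in normal stroma, with a median of 42.9. In AAS it ranged from 0 to 23.8, with a median of 10.8. The gene was lower in AAS in 11 of 12 pairs. Pair 5 was the exception, with 15.4 normalized CPM in normal stroma against 19.6 in AAS, where only the normal stroma samples of pairs 6 and 15 were lower. The means were 47.9 ± 32.3 and 10.1 ± 8.59 (SD, n = 12 each). The log2 fold change was -2.12 (standard error 0.54). Counts of 0 in the AAS samples of pairs 3, 7, 10 and 15 allow different levels, since 3 counts correspond to 1.53 to 28.01 normalized CPM across the AAS libraries, the highest in pair 7. These floors cover counting error only.

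HMCN2 (ENSCAFG00000019950) was the most variable of the 5 genes in normal stroma, with a coefficient of variation of 95.1%. It ranged from 0 to 125 normalized CPM there, with a median of 32.1, and from 0 to 56.9 in AAS, with a median of 6.16. The lowest normal stroma sample and the highest AAS sample came from the same dog, pair 6, with 0 and 67 counts. In the paper, the case with this dog's age and storage time had lower RNA quality in normal stroma than in AAS. The same held for several other cases, among them those with the ages and storage times of pairs 3, 4 and 5. The part of RNA quality in the difference of pair 6 was not tested. In the other 11 pairs the HMCN2 value was lower in AAS, but pairs 7 and 15 do not show a difference beyond the floor of 3 counts. The means were 45.8 ± 43.6 and 12.4 ± 16.9 (SD, n = 12 each). Its log2 fold change was -1.78 (standard error 0.70), and -2.64 (standard error 0.79) with the pair number as a block. Without the block HMCN2 had the smallest change of the 5 genes, and with it ABI3BP did, at -2.31 (standard error 0.62).

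**Figure D1:**
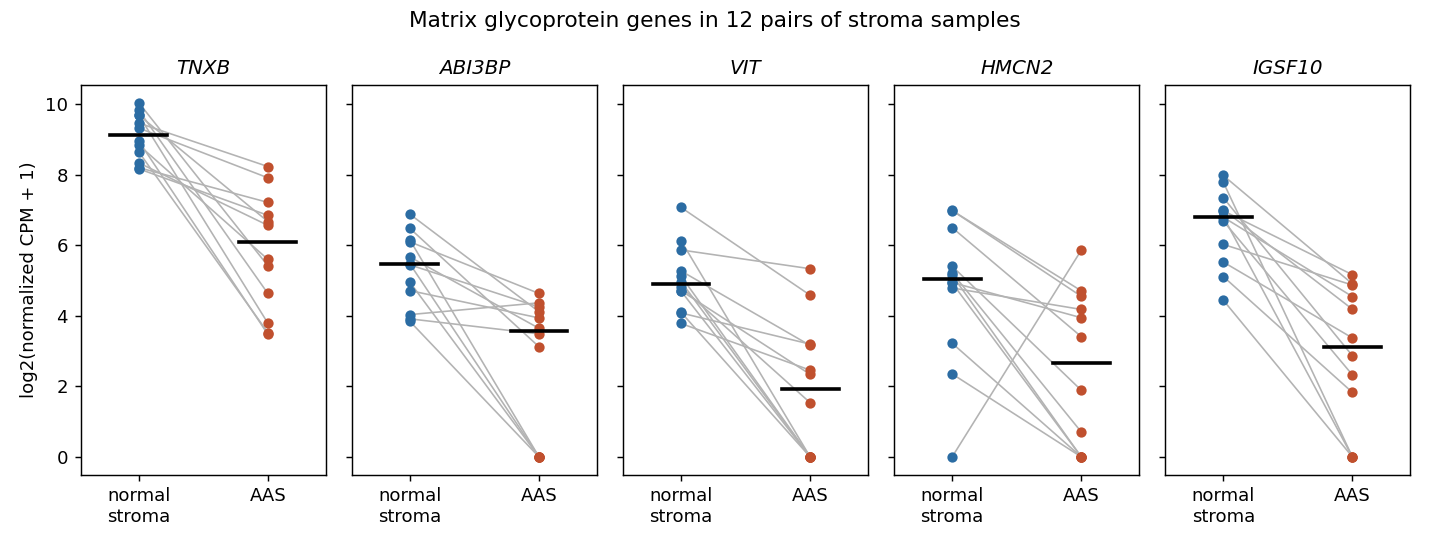
Level of each gene as log2(normalized CPM + 1) in normal stroma (blue) and AAS (orange) of 12 pairs, with grey lines joining the samples of a dog and black bars at the medians. TNXB falls in every pair and stays above 0 in all samples, whereas the other 4 genes have AAS samples with no count, and the HMCN2 line of pair 6 runs upward.

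The size of the difference was uneven across the genes of a dog. Where 1 sample of a pair held no count, as in 17 of the gene and pair combinations, the difference is a bound computed against 3 counts. Pair 15 had the smallest TNXB difference, -0.98 on the log2 CPM scale, while IGSF10 was at least 38.3-fold lower in its AAS sample. Pair 11 had the largest TNXB difference, -5.81, and VIT was at least 26.9-fold lower, beside an IGSF10 difference of -1.13. Pair 3 combined a VIT difference of -0.52 with ABI3BP at least 29.0-fold lower. In pair 6 HMCN2 was at least 16.2-fold higher in AAS while VIT was at least 13.3-fold lower. In pair 10 the AAS sample held 3 counts of TNXB and none of the other 4 genes, and at a floor of 10.5 normalized CPM it bounds these only at 1.54-fold lower for VIT to 3.29-fold lower for HMCN2.

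**Figure D2:**
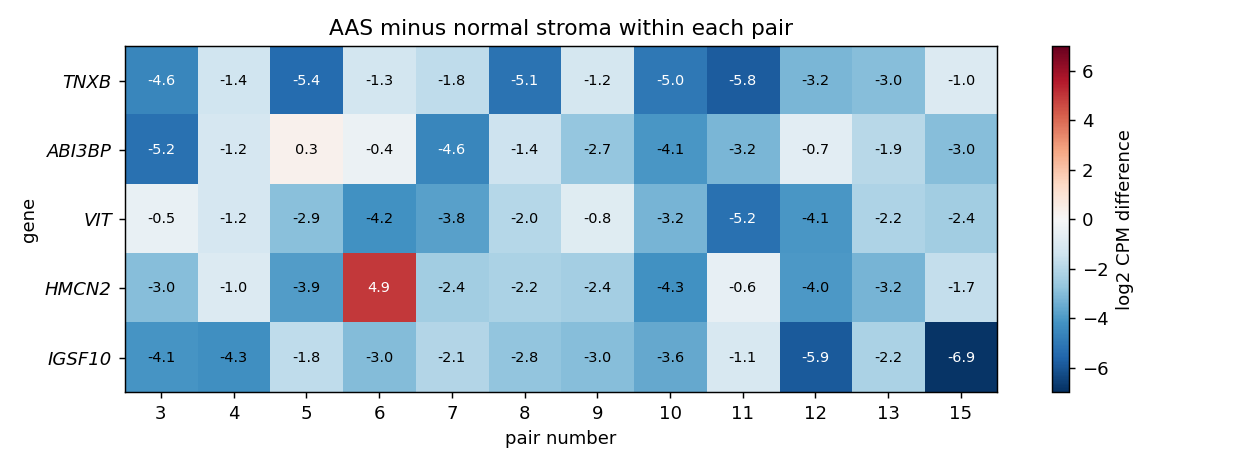
Difference in log2 CPM (prior count of 2), AAS minus normal stroma, for each gene (rows) and pair (columns), with blue for lower and red for higher in AAS. All but 2 of the squares are below 0, the exceptions being ABI3BP in pair 5 (0.32) and HMCN2 in pair 6 (4.95), and in 17 squares 1 sample held no count, so that the shade there depends on the prior count.

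In the fit over all 4544 tested genes by edgeR's quasi-likelihood test, a gene was called at an adjusted p below 0.05 and a log2 fold change beyond 1. TNXB, ABI3BP and IGSF10 were called lower, and VIT and HMCN2 were not, where 1.19% of tested genes were called lower. With the pair number as a block 1.89% of genes were called lower, and VIT was added at a log2 fold change of -3.12 (standard error 0.70). With DESeq2 the same 4 genes were called, where 1.85% were called lower, and with DESeq2 and the block all 5, where 3.41% were called lower and 1.58% higher. Without a filter on low counts all 5 were called as well, where 2.34% of 18441 genes were called lower and 6.82% higher. Since the genes were picked from this contrast, these calls describe the choice and support nothing further. Without pair 7 the log2 fold changes were -2.70 for TNXB, -2.11 for ABI3BP, -2.36 for VIT, -1.85 for HMCN2 and -3.12 for IGSF10, and TNXB, ABI3BP and IGSF10 were called. With the block and without pair 7, ABI3BP was no longer called, at a log2 fold change of -2.20. Without pair 7, 1.1% of tested genes were called lower and 0.548% higher, and with the block as well 1.54% were called lower.

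Pair 14, which played no part in the comparison, gave a mixed picture from few counts. TNXB had 62 counts in its normal stroma sample and 404 in its AAS sample, or 460.3 and 409.7 CPM when all 26 samples were normalized together. ABI3BP had 66.8 and 17.2 CPM, from 9 and 17 counts. VIT had 3 counts in normal stroma and 0 in AAS. HMCN2 had 29.7 and 35.5 CPM, from 4 and 35 counts. IGSF10 had 2 and 5 counts, or 14.8 and 5.07 CPM. Since 3 counts correspond to 22.3 CPM in the normal stroma sample, the VIT and IGSF10 values there do not exceed the floor. With pair 14 added the log2 fold change of TNXB was -2.30 and that of HMCN2 -1.58, and TNXB, ABI3BP, VIT and IGSF10 were called, where 1.23% of tested genes were called lower.

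The relation between the genes within normal stroma does not rest on the contrast that chose them. Over the 12 normal stroma samples TNXB varied together with ABI3BP and with HMCN2. Pearson's r of log2 CPM was 0.83 for TNXB and HMCN2 (permutation test with 100000 resamples, two-sided, p = 0.00031, adjusted p = 0.0062 over 20 relations) and Spearman's rho was 0.79 (permutation test, p = 0.00348, adjusted p = 0.0388). For TNXB and ABI3BP r was 0.78 (permutation test, p = 0.00364, adjusted p = 0.0364) and rho was 0.78 (permutation test, p = 0.00388, adjusted p = 0.0388). For ABI3BP and HMCN2 r was 0.72 (permutation test, p = 0.00718, adjusted p = 0.0479), while rho was 0.64 and missed the threshold (permutation test, p = 0.0274, adjusted p = 0.183). Without the 2 samples farthest from the median of the first gene, r was 0.72, 0.63 and 0.47 in the same order. Without pair 7 it was 0.82, 0.87 and 0.76 (permutation test, adjusted p = 0.0106, 0.0106 and 0.0209). The normal stroma samples of pairs 3, 8 and 9 were high in TNXB and the highest in HMCN2, and those of pairs 6 and 15 were the lowest in TNXB, ABI3BP and HMCN2.

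No relation of VIT or IGSF10 passed. In normal stroma their r with TNXB was -0.06 and -0.12 (permutation test, adjusted p = 0.853 and 0.8), with a rho of 0.08 and -0.25 (permutation test, adjusted p = 0.861 and 0.624). IGSF10 had an r of -0.51 with ABI3BP (permutation test, p = 0.0932, adjusted p = 0.351) and a rho of -0.61 (permutation test, p = 0.0393, adjusted p = 0.197). The samples of pairs 6 and 15, low in TNXB, were the highest in IGSF10, and pair 15 was also the highest in VIT. VIT and IGSF10 had an r of 0.43 with each other (permutation test, adjusted p = 0.368) and a rho of 0.36 (permutation test, adjusted p = 0.5). In AAS no relation passed, and r ran from -0.23 to 0.47 over the 10 pairs of genes. There 3 to 5 of 12 samples of each gene but TNXB held no count, and their log2 CPM depends on the prior count. Whether the relations differ between normal stroma and AAS was not tested.

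Depth moved with these levels to some extent. In normal stroma the r of log2 CPM with the log2 total count was 0.59 for TNXB, 0.38 for ABI3BP, 0.36 for HMCN2 and -0.04 for both VIT and IGSF10, as a description over 12 samples. With the total count regressed out, a setting chosen after seeing the data, r was 0.82 for TNXB and HMCN2 (permutation test, adjusted p = 0.0182), 0.75 for TNXB and ABI3BP (permutation test, adjusted p = 0.0498) and 0.67 for ABI3BP and HMCN2 (permutation test, adjusted p = 0.108), so that the last one missed the threshold. Spearman's rho then missed it for all 3, at 0.76, 0.74 and 0.59 (permutation test, adjusted p = 0.0799, 0.0799 and 0.298). Over all other tested genes, r with TNXB in normal stroma had a median of 0.12 and a 95th percentile of 0.67, and all genes of a sample share its depth and composition. In AAS the r of log2 CPM with the log2 total count was 0.36 for TNXB, 0.52 for ABI3BP, 0.10 for VIT, 0.47 for HMCN2 and 0.43 for IGSF10.

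**Figure D3:**
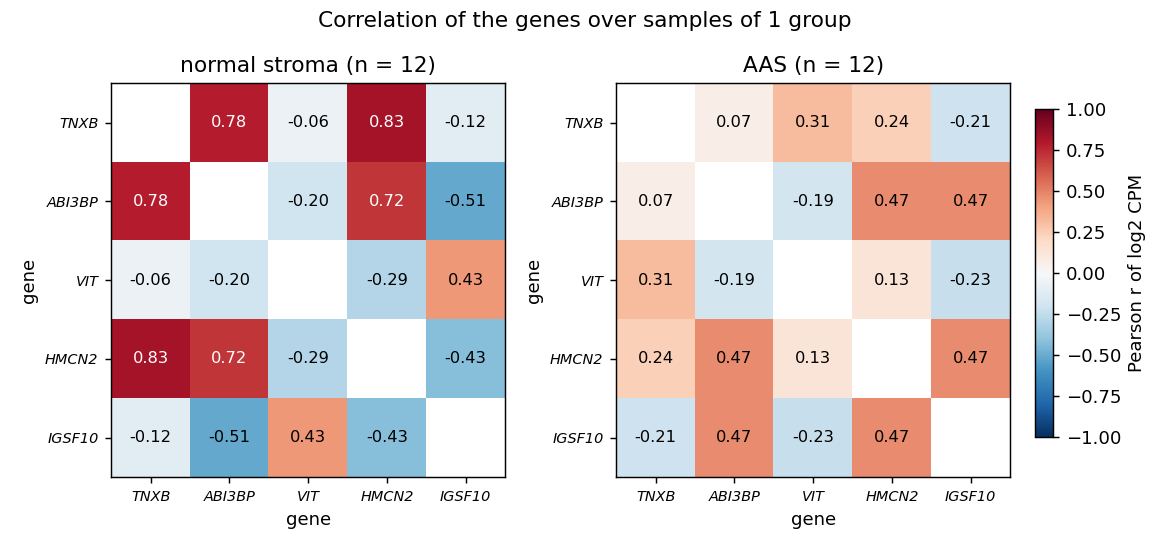
Pearson's r of log2 CPM between the 5 genes over 12 normal stroma samples (left) and 12 AAS samples (right), from -1 (blue) to 1 (red). The TNXB, ABI3BP and HMCN2 squares reach 0.72 to 0.83 in normal stroma, and no square passes 0.47 in AAS. Each gene but TNXB has 3 to 5 AAS samples with no count.

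The age labels were used as a second measure that is independent of the contrast. Within the 12 normal stroma samples, a slope per 12 months of storage was fitted for 6663 genes with edgeR's quasi-likelihood test, and 0.03% of them were called at an adjusted p below 0.05. None of the 5 genes passed. The slope on the log2 scale was -0.46 for TNXB (95% interval -0.99 to 0.06), -0.63 for ABI3BP (-1.50 to 0.23), -0.78 for VIT (-1.58 to 0.01), -1.25 for HMCN2 (-2.53 to 0.03) and 0.01 for IGSF10 (-0.72 to 0.75). The adjusted p-values of the 5 slopes ran from 0.778 to 0.998, and all 5 intervals include 0. Normal stroma and AAS of a dog came from the same slide and had the same storage time.

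For the age of the dog, 0% of the 6663 genes were called, against 188 at an unadjusted p below 0.05 by the same edgeR test. IGSF10 had a slope of -0.34 per year on the log2 scale (95% interval -0.58 to -0.10, edgeR unadjusted p = 0.00825, adjusted p = 1), and the slopes of the other 4 genes ran from -0.29 for HMCN2 to 0.08 for ABI3BP, with intervals that include 0.

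Other matrix genes gave the frame for these values. The lists were defined by symbol, and symbols were known for 3302 of 18466 identifiers, more often for genes that changed. Of 12 relatives of the 5 genes by family or domain, 4 had an identifier, 3 were tested and none was called. HMCN1, the gene of hemicentin-1, had 294 ± 67.7 normalized CPM in normal stroma against 245 ± 62.7 in AAS (SD, n = 12), a log2 fold change of -0.26 (standard error 0.17, edgeR adjusted p = 0.683). HMCN2 had a log2 fold change of -1.78, and the difference between the 2 hemicentin genes was not tested. TNC, the gene of tenascin-C, a tenascin known from wounds and tumours, had 7.80 ± 10.2 in normal stroma against 38.4 ± 58.7, with a log2 fold change of 2.34 (standard error 0.76) that did not pass (edgeR adjusted p = 0.135). It was lower in AAS in 2 of 12 pairs. MATN4, a matrilin, did not pass the filter. It had 23.6 ± 17.7 normalized CPM in normal stroma against 1.92 ± 3.45, with 11 of 12 pairs lower in AAS, and with a filter at a mean of 5 counts it was called lower (log2 fold change -3.44, edgeR adjusted p = 0.00743), where 1.15% of tested genes were called lower. MATN2, which like VIT carries von Willebrand factor A domains, had a log2 fold change of -0.79 (standard error 0.43, edgeR adjusted p = 0.577).

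Of 76 other matrix glycoproteins, 37 had an identifier and 29 were tested. LTBP2, a microfibril-associated protein, was called higher, where 0.616% of tested genes were, with 10.8 ± 12.5 against 93.4 ± 59.6 normalized CPM in AAS (log2 fold change 3.17, edgeR adjusted p = 0.000456). FBLN1 and EFEMP1, both of the fibulin family, and AEBP1, a collagen-binding protein, were called lower, where 1.19% of tested genes were, with log2 fold changes of -1.71, -1.73 and -1.67 (edgeR adjusted p = 0.00508, 0.045 and 0.00725). The 3 most abundant genes that were not called were NTN4, FBN1 and THBS1, with log2 fold changes of -0.22, -0.31 and 0.81. The median log2 fold change of the 29 genes was -0.31, against 0.01 over all tested genes, and 18 of the 29 lay below 0. With the pair number as a block 7 were called, 2 higher and 5 lower, against 0.638% and 1.89% of all tested genes, and EFEMP1 was not among them (edgeR adjusted p = 0.0533), nor was it called without pair 7 (edgeR adjusted p = 0.053). With a filter at a mean of 5 counts 37 were tested, 2 called higher and 4 lower, against 0.824% and 1.15% of all tested genes. This added FBN2, higher (log2 fold change 4.59, edgeR adjusted p = 0.00186), and MMRN1, lower (log2 fold change -3.10, edgeR adjusted p = 0.0183). FBN2 had no count in 7 normal stroma samples, and MMRN1 had none in 6 AAS samples.

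Of 26 collagens and proteoglycans of the matrix, 19 had an identifier and 18 were tested. DCN, the small proteoglycan decorin, was called lower (605 ± 286 and 152 ± 170 normalized CPM, log2 fold change -1.96, edgeR adjusted p = 0.00996). BGN, its relative biglycan, was called higher (25.99 ± 26.6 and 203 ± 145, log2 fold change 2.96, edgeR adjusted p = 0.000223). Over all tested genes 1.19% were called lower and 0.616% higher. COL1A1, COL1A2 and COL3A1, the most abundant genes that were not called, had log2 fold changes of -1.26, -1.36 and -1.03 (edgeR adjusted p = 0.301, 0.0532 and 0.43). The median of the 18 was -0.70, with 11 below 0. With the block 5 were called, 1 higher and 4 lower, against 0.638% and 1.89% of all tested genes, and without pair 7 COL1A2 was also called (edgeR adjusted p = 0.0393). The 7 fibroblast markers, which share COL1A1, COL1A2, COL3A1 and DCN with this list, had a median of -1.13, and all 7 were below 0, with DCN and VIM called lower. The smallest changes among them were those of PDGFRA (-0.44, edgeR adjusted p = 0.737) and THY1 (-0.39, edgeR adjusted p = 0.643). The log2 fold changes of the 5 glycoprotein genes lay below the fibroblast marker median, a difference that was not tested and that the choice of these genes favours.

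**Figure D4:**
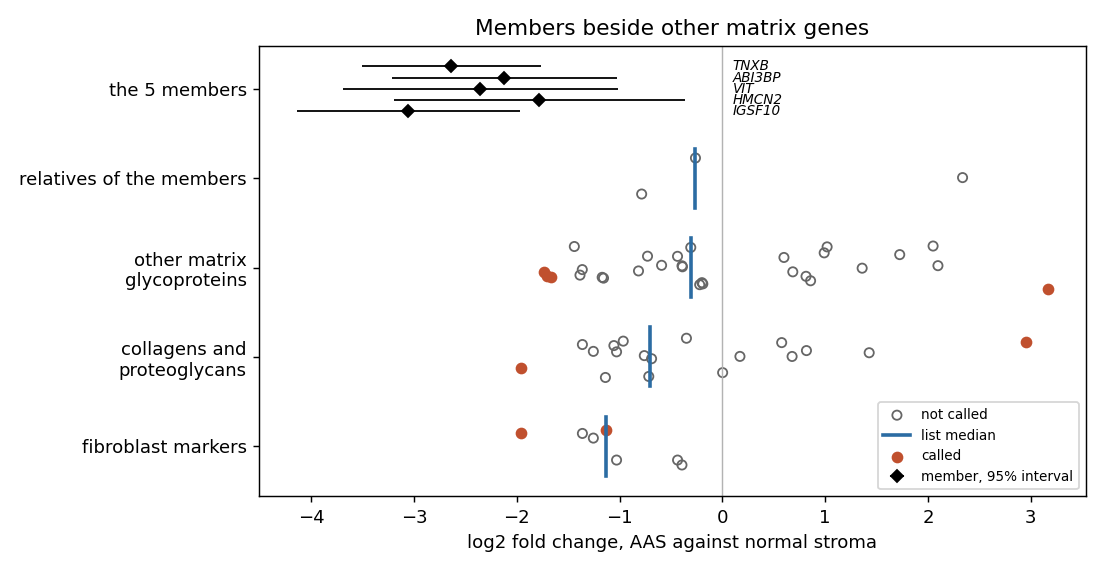
Log2 fold change of AAS against normal stroma for the 5 genes (black, with 95% intervals) and for the tested genes of 4 lists (circles, filled where called, blue bar at the list median). The 5 genes lie between -3.06 and -1.78, while the list medians lie between -1.13 and -0.26, and LTBP2 and BGN stand out on the right at 3.17 and 2.96.

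The neighbours of the genes bear on how surely the reads can be assigned. In the RefSeq annotation of another dog assembly (UU_Cfam_GSD_1.0), TNXB on chromosome 12 overlaps CYP21A2, the gene of steroid 21-hydroxylase, an enzyme known from the adrenal cortex. CYP21A2 (ENSCAFG00000000712) had 752 ± 338 against 95.7 ± 93.2 normalized CPM in AAS (SD, n = 12), without overlap between the groups (log2 fold change -2.99, standard error 0.47, edgeR adjusted p = 0.000125). TNXB held between 36.3% and 49.6% of the counts of both genes together in normal stroma, against 24.2% to 81.1% in AAS. The 2 levels had an r of 0.92 over the normal stroma samples and 0.81 over the AAS samples, as a description. The library kit keeps strand, whereas the strand setting of the quantification is not given in the sources used here, so that TNXB and CYP21A2 reads cannot be told apart with certainty. With the counts of both genes summed, a setting chosen after seeing the data, the log2 fold change was -2.83 (standard error 0.44).

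**Figure D5:**
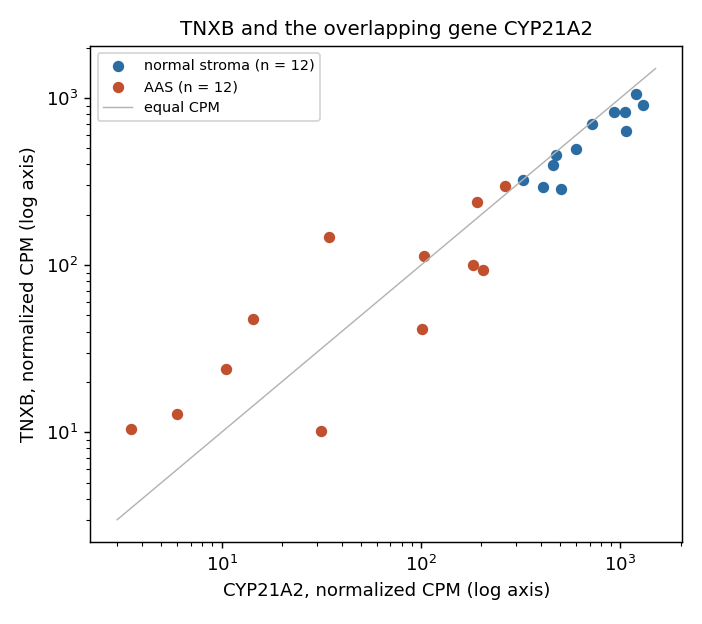
TNXB against the overlapping gene CYP21A2, in normalized CPM on log axes, for 12 normal stroma samples (blue) and 12 AAS samples (orange), with a grey line where both are equal. The normal stroma samples lie just under the line, with a ratio of TNXB to CYP21A2 of 0.57 to 0.985, and the AAS samples scatter on both sides, from 0.32 to 4.28.

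TFG, which lies next to ABI3BP on chromosome 33 without overlap, was also called lower, with 380 ± 217 and 73.7 ± 55.4 normalized CPM (log2 fold change -2.34, edgeR adjusted p = 0.000565). IMPG2, on the other side of ABI3BP, had a log2 fold change of -0.48 (edgeR adjusted p = 0.769). MED12L, beside IGSF10 on chromosome 23, had a log2 fold change of -1.34 that did not pass (edgeR adjusted p = 0.255). In the blocked fit it was -1.91 and passed (edgeR adjusted p = 0.0408), but not without pair 7 (edgeR adjusted p = 0.0879). ATF6B, on the far side of TNXB from the overlap, had a log2 fold change of 0.51 (edgeR adjusted p = 0.806). The neighbours of VIT and HMCN2 had no identifier among the known symbols.

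The tested genes whose levels followed each of the 5 most closely were looked up after subtracting the group means, over the 24 samples and among 1855 genes with a symbol. These values describe shared variation between libraries, depth included, and carry no test. For TNXB, CYP21A2 came first (r = 0.82, rho = 0.80), then C3, the central complement component (r = 0.76, rho = 0.75), and S100A4, a calcium-binding protein of fibroblasts (r = 0.71, rho = 0.69). C3 followed TNXB within both groups, with an r of 0.66 in normal stroma and 0.79 in AAS, although its mean was higher in AAS, at 117 normalized CPM against 26.6. For HMCN2 the closest were CAST, SEMA6D and CCNC (r = 0.83, 0.82 and 0.78, rho = 0.77, 0.78 and 0.83), and for IGSF10 they were RCN1, RTL1 and NHLRC2 (r = 0.78, 0.77 and 0.70, rho = 0.76, 0.76 and 0.58). For VIT r was lower, with ZNF423, ZYX and SCN3A at 0.71, 0.61 and 0.59 (rho = 0.70, 0.61 and 0.53). For ABI3BP, NRP1 and NACA were among the closest (r = 0.87 and 0.83, rho = 0.79 and 0.82), with means of only 11.4 to 13.6 normalized CPM in either group.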

How the data were processed

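Per the labels and the study's methods, the authors used kallisto 0.44.0 on the CanFam3.1 transcriptome and tximport to collapse transcripts to genes. The estimated counts they deposited are not normalized and cover 18466 genes in 26 samples. All of them are whole numbers, so rounding changed none. Group and pair number came from each sample's label, and samples of a pair come from the same dog. Deviations from the group means had a mean correlation of 0.125 within pairs and -0.00597 between pairs. As in the methods, pair 14 was left out. Genes passing filterByExpr entered TMM normalization and the quasi-likelihood test of edgeR 4.0.16 (R 4.3.3) with Benjamini-Hochberg adjustment. The test was also run on counts simulated from its own model without dog pairs, which does not show how it performs on these samples. The filter can be met by the samples of 1 group alone, and all 5 genes passed it. Standard errors and 95% intervals follow from the quasi-likelihood F statistic. A prior count of 2 was used for log2 CPM. DESeq2 1.42.0 served as an alternative, and permutations used numpy 2.4.6. Total counts limit the precision, with 3 counts as the floor for a value of 0. Gene lengths were not used here, so that levels are not compared between genes. Symbols came from Supplementary tables of the study. Named are the 5 genes, every called gene and the 3 most abundant uncalled ones of each list, annotated neighbours, and the 3 most similar genes of each, of which 1 is not reported here. The genes, lists and tests were chosen with earlier results of these data known. Other alternatives were RLE normalization, other filters, the pair block, all 13 pairs, leaving out pair 7 and leaving out the 10 most counted genes. Leaving out pair 7 together with the block, summing TNXB with CYP21A2 and regressing out the total count were added after seeing the data. Markers of cell types other than fibroblasts were too thinly covered by symbols to describe those cells.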

Additional observations from a re-analysis of the deposited data

How the results depend on the processing

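The number of genes called between AAS and normal stroma was 82 and depended most on the filter and the tool. It was 1690 without a filter on low counts, 153 with a mean of at least 5 counts, 134 with DESeq2 and 227 with DESeq2 and the pair number as a block. With the block in edgeR it was 115. All 5 genes kept log2 fold changes below 0 under all 11 alternatives, from -3.29 to -2.30 for TNXB, -2.37 to -2.10 for ABI3BP, -3.19 to -2.32 for VIT, -2.75 to -1.58 for HMCN2 and -3.60 to -3.00 for IGSF10. HMCN2 was called only without a filter on low counts and with DESeq2 and the block. The calls among relatives of the genes went from 0 to 1 with a mean of at least 5 counts. With the block those among other matrix glycoproteins went from 4 to 7 and those among collagens and proteoglycans from 2 to 5. Of all tested genes, 1.19% were called lower and 0.616% higher in the main fit. These shares were 1.15% and 0.824% with a mean of at least 5 counts, and 1.89% and 0.638% with the block. In AAS samples 2 genes were called for dog age, against 0 in normal stroma. Slopes turned in AAS for storage age in ABI3BP (0.032) and HMCN2 (0.39), and for dog age in ABI3BP (-0.37), VIT (-0.92) and IGSF10 (0.020). Within normal stroma the storage age slope of IGSF10 turned with dog age as a covariate (-0.052). None of these slopes passed the test in either fit, so that no direction is drawn from them. The correlation of TNXB and ABI3BP in AAS went from 0.07 to -0.15 with the total count regressed out. The causes were not tested. The correlation of ABI3BP and HMCN2 in normal stroma missed the threshold in that setting, at 0.67. Depth limits ABI3BP, VIT, HMCN2 and IGSF10 in AAS, where 3 to 5 samples of each held no count.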
